A study of Bos indicus with 5 samples.

Results

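Transcripts of 10 genes of the transforming growth factor beta (TGF beta) system were examined in the ampulla, the wide part of the oviduct beside the ovary, of Nelore (Bos indicus) cows. They were the ligands TGFB1, TGFB2 and TGFB3, the receptors TGFBR1, TGFBR2 and TGFBR3, the latent binding proteins LTBP1 and LTBP2, and CTGF and TGFBI, which are known as genes induced by the pathway. The genes were chosen by symbol, and each of the 10 matched 1 row of the 24616 genes in the table. All 10 also passed the filter on low values, a mean over 5 normalized reads, which left 15815 genes to be tested. All cows were healthy, multiparous and without lactation, and all received an intravaginal progesterone device with estradiol benzoate, prostaglandin F2α at and after device removal, and a GnRH agonist that induced ovulation. In the large follicle, large corpus luteum group (LF/LCL, 2 libraries) a further prostaglandin F2α dose was given when the device was inserted, and the device was removed 42 h before GnRH. In the small follicle, small corpus luteum group (SF/SCL, 3 libraries) that dose was omitted and the device was removed 30 h before GnRH. Tissue of the full wall thickness was taken on day 4 from the oviduct on the side of the corpus luteum, with 1 library per animal. The sequenced cows were those at the extremes of a ranking on follicle, corpus luteum and hormone measurements, so the groups stand for extremes of the model rather than for all treated cows.

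TGF beta ligands are secreted in a latent form, held by their own propeptide and tethered to the extracellular matrix by latent TGF beta binding proteins. Once released, a ligand is bound by the type II receptor, which recruits and phosphorylates the type I receptor, and the type I receptor phosphorylates SMAD2 and SMAD3 in the cell. The pathway is known for its control of proliferation, matrix production and smooth muscle and fibroblast differentiation, and in the oviduct its ligands have been studied as factors at the interface of the mucosa and the early embryo.

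The libraries held from 13418278 to 19592174 reads assigned to genes. Values are normalized reads, which are read counts divided by a size factor for each library, and they are not corrected for gene length, so that levels are compared between libraries and not between genes. Markers of oviduct epithelium, OVGP1 and PAX8 of secretory cells and FOXJ1 of ciliated cells, were present in every library. Their presence does not tell the ampulla from other parts of the oviduct, so the region was not tested. The libraries differed in the levels of cell type markers. The summed level of 11 smooth muscle markers ran from 65487 to 126820 normalized reads in the LF/LCL libraries and from 17558 to 43697 in the SF/SCL libraries, and that of 10 ciliated cell markers from 54119 to 70761 and from 79016 to 84811. For neither list did the groups overlap. The summed levels of 9 stromal fibroblast markers (33605 to 82473 in LF/LCL, 21744 to 46750 in SF/SCL), 7 endothelial, 5 secretory, 9 immune and 5 mesothelial markers overlapped between the groups, and no marker in the table was at 0 in all libraries. These sums weigh high markers most, such as OVGP1 (133230 normalized reads on average) among the secretory and CD74 (14920) among the immune. Single markers of overlapping lists could still separate the groups. This held for 4 immune markers higher in LF/LCL and 1 lower, and for 2 secretory markers higher and 1 lower. It also held for 2 stromal fibroblast markers higher in LF/LCL (COL1A1 and FBN1) and for 1 endothelial marker lower (KDR). Among all genes tested 30.1% did not overlap. In tissue of the whole wall, fewer cells of a type and less RNA per cell cannot be told apart.

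Of the 10 genes, TGFB2 was the only one whose groups did not overlap. Its level was 1.96 times as high in SF/SCL. For the other 9 genes the libraries of both groups shared a range, and their 95% intervals of the fold change included no change. With limma, 0 of the 10 had an adjusted p under 0.05, as was so for 0 of the 15815 genes tested (0%), where the smallest adjusted p was 0.178. At an unadjusted p under 0.05, 1 of the 10 was found (TGFB2), against 11.5% of all genes tested (5.86% in its direction, higher in SF/SCL). Groups did not overlap in 1 of the 10, against 30.1% of all genes (15.1% with SF/SCL the higher). Counted in both directions, the share of the 10 genes was thus no larger than that of all genes in either measure. In the direction of TGFB2 alone, 1 of 10 was above the 5.86% by p and under the 15.1% by overlap, and it was a single gene. By sign alone, 4 of the 10 leaned toward LF/LCL and 6 toward SF/SCL. Over the 10 genes the median of the log2 fold changes, taken as LF/LCL over SF/SCL, was -0.06, and it was 0.01 over all genes tested.

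**Figure D1:**
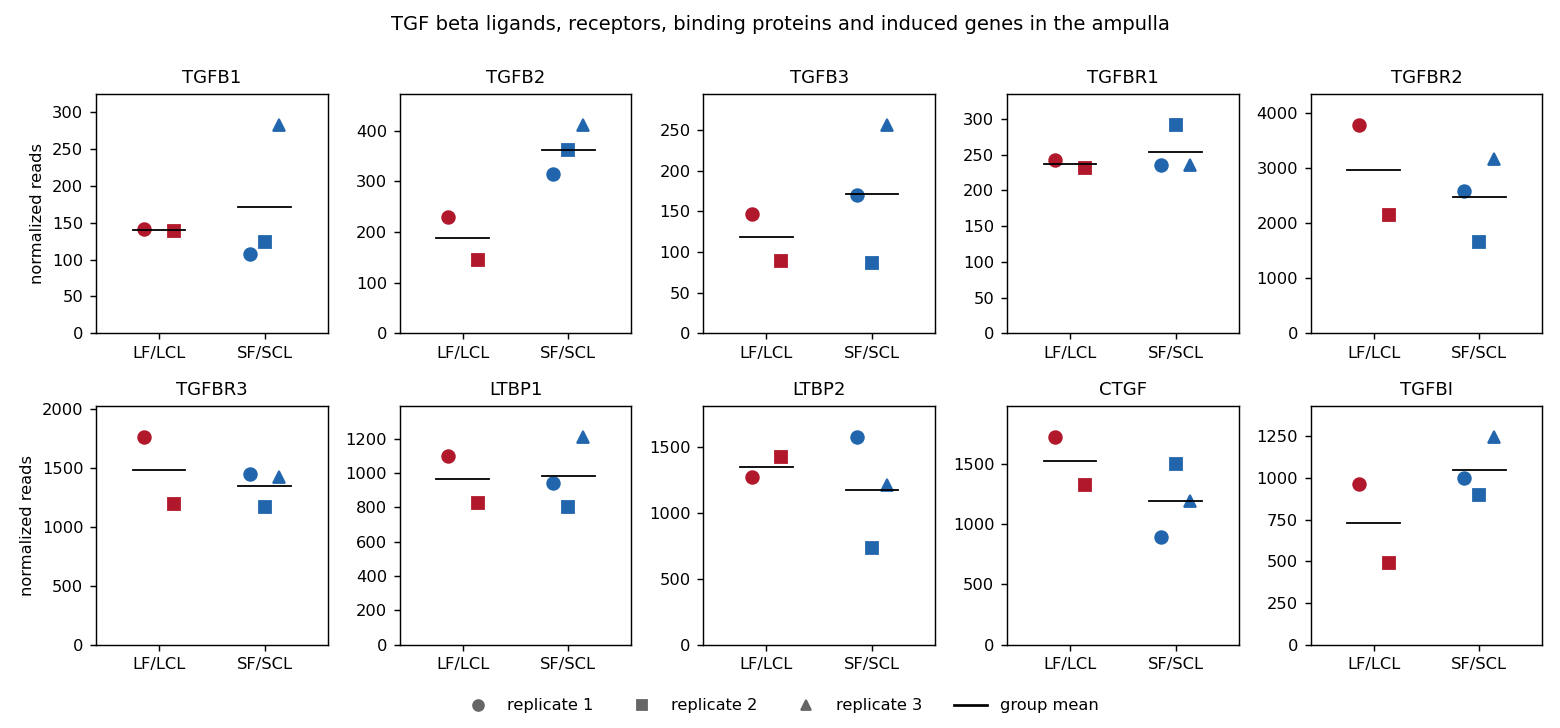
Normalized reads (y axis, linear and starting at 0, a separate scale for each gene) of the 10 genes in the 2 LF/LCL and 3 SF/SCL libraries. Each symbol is a library, its shape gives the replicate number and the line is the group mean. In TGFB2 both LF/LCL libraries lie under all SF/SCL libraries, and in every other panel the groups overlap.

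Among the ligands, TGFB2 encodes the isoform known for its part in epithelial and mesenchymal tissue interactions. Its level was 230 normalized reads in LF/LCL replicate 1 and 145 in replicate 2, against 315, 361 and 410 in SF/SCL replicates 1, 2 and 3. The highest LF/LCL library thus lay under the lowest SF/SCL library. The LF/LCL mean was 188 ± 59.9 (SD, n = 2), and the SF/SCL mean was 362 ± 47.5 (SD, n = 3). On the log2(value + 1) scale the fold change was -0.97 ± 0.24 (SE), with a limma p of 0.00696 before and 0.298 after adjustment over all genes tested, and it ranked at 369 of 15815 by p. As a fold, SF/SCL over LF/LCL, the 95% interval ran from 1.30 to 2.97, without adjustment for the number of genes. On the reads recovered from the table, the quasi-likelihood test of edgeR gave TGFB2 an adjusted p of 0.312. DESeq2 called it with an adjusted p of 0.0401, in a fit that called 457 genes (2.89%). Between 150 and 464 reads lay behind the values, and counting error at 150 reads is 8.16%, under the variation between animals of 31.9% (LF/LCL) and 13.1% (SF/SCL). In its own sequencing analysis the study listed TGFB2 among the genes of enriched processes in the SF/SCL ampulla, the same direction as here. The study also measured ampulla TGFB2 by PCR, in the sequenced animals and in a larger set, and reported no significant group difference in either. In the sequenced animals its PCR difference was much smaller than its sequencing difference. Across its candidates the study held that PCR and sequencing patterns agreed.

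The size of the TGFB2 difference depended on the LF/LCL libraries. Its direction could not change when a library was left out, because both LF/LCL libraries lay under all SF/SCL libraries. Without LF/LCL replicate 1 the log2 fold change was -1.30, and without LF/LCL replicate 2 it was -0.64. It lay between -1.07 and -0.88 when an SF/SCL library was left out. For the same reason the groups could not come to overlap in these 5 fits, in which 41.1% to 57.1% of all genes did not overlap. With an SF/SCL library left out, the unadjusted limma p was from 0.0119 to 0.0233 and the adjusted p from 0.386 to 0.450. A fit without an LF/LCL library leaves 1 library in that group, so only its fold change is given.

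TGFB1 encodes the isoform most often linked to immune control and fibrosis. Its level was 142 and 139 normalized reads in the LF/LCL libraries, against 108, 124 and 282 in SF/SCL replicates 1, 2 and 3. The LF/LCL libraries were nearly equal, and the SF/SCL mean of 171 ± 96.4 (SD, n = 3) was raised by replicate 3 alone. Its log2 fold change was -0.15 ± 0.43 (SE, limma adjusted p = 0.932). Without SF/SCL replicate 3 it turned to 0.28, and LF/LCL then lay above SF/SCL without overlap. In that fit the groups did not overlap for 41.1% of all genes, in either direction. The counts behind TGFB1 were low, from 104 to 263 reads.

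TGFB3 encodes the isoform known for its role in palate fusion and low scarring repair. It had 147 and 89.0 normalized reads in the LF/LCL libraries, against 171, 86.3 and 255 in SF/SCL replicates 1, 2 and 3. SF/SCL held both the lowest and the highest library, which differed by 2.96 times. The log2 fold change was -0.44 ± 0.49 (SE, limma adjusted p = 0.788), with an interval from -1.65 to 0.77. As a fold, SF/SCL over LF/LCL, the interval of TGFB3 ran from 0.587 to 3.14, so that a difference the size of that of TGFB2 was not detectable here.

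SF/SCL replicate 3 had the highest level of the 5 libraries in all 3 ligand genes. Within-library ratios, which do not depend on the scaling of the libraries, were used to ask whether the ligands differed in their balance. The ratio of TGFB2 to TGFB1 was 1.62 and 1.04 in the LF/LCL libraries, against 2.91, 2.92 and 1.45 in SF/SCL replicates 1, 2 and 3. Only SF/SCL replicate 3 lay within the LF/LCL range. The difference in mean log2 ratio was -0.83 (LF/LCL minus SF/SCL). With an exact permutation test it had a two-sided p of 0.40, and 0.20 is the smallest p that 2 against 3 libraries allow. The ratio of TGFB2 to TGFB3 was 1.57 and 1.63 in the LF/LCL libraries and 1.85, 4.18 and 1.61 in the SF/SCL libraries, a difference of -0.53, and that of TGFB3 to TGFB1 differed by -0.30. The exact p for these ratios was 0.40 and 0.80. Of the 6 ratios compared, each had a Benjamini-Hochberg adjusted exact p of 0.80, so a shift in the balance of the ligands was not detectable with these libraries.

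Among the receptors, TGFBR1, the type I signaling kinase, was the most even of the 10 genes. It had 243 and 231 normalized reads in the LF/LCL libraries, against 236, 291 and 235 in SF/SCL replicates 1, 2 and 3. The highest and lowest of the 5 libraries differed by 1.26 times. Between the groups it had a log2 fold change of -0.09 ± 0.18 (SE, limma adjusted p = 0.891), with a 95% interval of the fold, LF/LCL over SF/SCL, from 0.696 to 1.26. Its residual SD on the log2 scale was 0.15, at percentile 30.6 of all genes tested, against 0.51 and percentile 78.4 for TGFBR2.

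TGFBR2 encodes the type II kinase that binds ligand first. It had 3766 and 2136 normalized reads in the LF/LCL libraries, against 2585, 1650 and 3151 in SF/SCL replicates 1, 2 and 3. LF/LCL replicate 1 was the highest library and SF/SCL replicate 2 the lowest, and LF/LCL replicate 2 lay inside the SF/SCL range. TGFBR2 had a log2 fold change of 0.25 ± 0.35 (SE, limma adjusted p = 0.833). It was 0.66 without LF/LCL replicate 2 and -0.15 without LF/LCL replicate 1. At least 2123 reads lay behind each value, where counting error is 2.17%, far under the spread between libraries of 39.0% in LF/LCL and of 30.8% in SF/SCL.

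TGFBR3, or betaglycan, presents ligand to the type II receptor and is best known for binding TGFB2. Its values were 1764 and 1193 normalized reads in the LF/LCL libraries, against 1448, 1163 and 1423 in SF/SCL replicates 1, 2 and 3. The SF/SCL values all lay within or just under the LF/LCL range. TGFBR3 had a log2 fold change of 0.12 ± 0.20 (SE, limma adjusted p = 0.869), with a 95% interval of the fold from 0.780 to 1.51. It was 0.40 without LF/LCL replicate 2 and -0.17 without LF/LCL replicate 1. The ratio of TGFBR2 to TGFBR1 was 15.5 and 9.23 in the LF/LCL libraries and 11.0, 5.68 and 13.4 in the SF/SCL libraries, and the ratio of TGFBR3 to TGFBR2 ran from 0.452 to 0.705 over the 5 libraries. For both ratios the exact permutation p was 0.80.

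**Figure D2:**
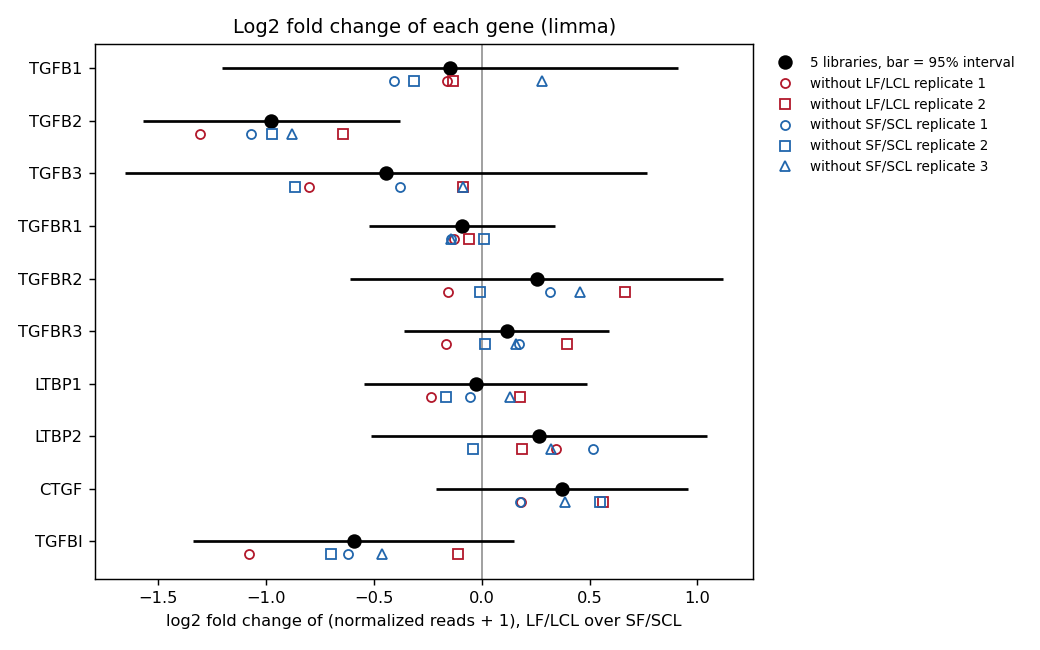
Log2 fold change of (normalized reads + 1), LF/LCL over SF/SCL, for each of the 10 genes (x axis). Black points and bars are the estimate from all 5 libraries and its 95% limma interval, and open symbols are the estimates with the named library left out. Only the TGFB2 interval, from -1.57 to -0.38, lies on one side of 0, and the open symbols of TGFB1, TGFBR1, TGFBR2, TGFBR3, LTBP1 and LTBP2 fall on both sides.

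The latent binding proteins were measured with 852 or more reads in each library. LTBP1, which anchors the latent complex in the matrix, had 1100 and 825 normalized reads in the LF/LCL libraries, against 939, 804 and 1212 in SF/SCL replicates 1, 2 and 3. The groups covered nearly the same range. For LTBP1 this gave a log2 fold change of -0.03 ± 0.21 (SE, limma adjusted p = 0.978), with a 95% interval of the fold from 0.686 to 1.40. LTBP2 is a family member that does not bind the TGF beta propeptide and is known as a microfibril protein. It had 1270 and 1420 normalized reads in the LF/LCL libraries, against 1576, 731 and 1208 in SF/SCL replicates 1, 2 and 3. Its low value was in SF/SCL replicate 2 alone. The log2 fold change of LTBP2 was 0.27 ± 0.32 (SE, limma adjusted p = 0.804), and -0.04 without that library. The ratio of LTBP2 to LTBP1 differed by 0.29 on the log2 scale (exact permutation p = 0.40).

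CTGF encodes a matricellular protein of the CCN family that TGF beta and YAP signaling both induce. It had 1726 and 1324 normalized reads in the LF/LCL libraries, against 895, 1496 and 1190 in SF/SCL replicates 1, 2 and 3. LF/LCL replicate 1 was above all SF/SCL libraries, and LF/LCL replicate 2 was under SF/SCL replicate 2. CTGF had a log2 fold change of 0.37 ± 0.24 (SE, limma adjusted p = 0.602), and it stayed above 0 when any library was left out, from 0.18 to 0.56. Without SF/SCL replicate 2 the unadjusted limma p of CTGF was 0.0401 and the adjusted p was 0.455. TGFBI encodes a secreted matrix protein that binds collagens and integrins. Its level was 962 and 492 normalized reads in the LF/LCL libraries, against 999, 897 and 1247 in SF/SCL replicates 1, 2 and 3. LF/LCL replicate 1 lay inside the SF/SCL range, and LF/LCL replicate 2 well under it. The log2 fold change of TGFBI was -0.59 ± 0.30 (SE, limma adjusted p = 0.518). It was -1.08 without LF/LCL replicate 1 and -0.11 without LF/LCL replicate 2, so that its size rested on LF/LCL replicate 2. Without LF/LCL replicate 1, which leaves 1 library in that group, the groups of TGFBI did not overlap, as was so for 56.9% of all genes. CTGF and TGFBI, both textbook TGF beta induced genes, thus had fold changes of opposite sign, and neither passed the test.

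The 10 genes varied more between animals than most genes. Their median residual SD was 0.39 on the log2 scale, against 0.23 over all genes tested, and 9 of the 10, all but TGFBR1, lay at percentile 57.6 or above. SF/SCL replicate 3 held the highest level of 5 of the 10 genes (TGFB1, TGFB2, TGFB3, LTBP1 and TGFBI) and was the highest library for 23.7% of all genes tested. SF/SCL replicate 2 held the lowest level of 5 of the 10 (TGFB3, TGFBR2, TGFBR3, LTBP1 and LTBP2) and was the lowest for 18.7% of all genes. These libraries belonged to one group, and for 9 of the 10 genes, all but TGFB2, the range within SF/SCL was wider than the difference between the group means.

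The order of the libraries was read beside that of the cell type markers. For TGFBR2 it ran from LF/LCL replicate 1 through SF/SCL replicate 3, SF/SCL replicate 1 and LF/LCL replicate 2 to SF/SCL replicate 2, which is also the order of the summed stromal fibroblast markers (COL1A1, COL1A2, COL3A1, DCN, LUM, PDGFRA, PDGFRB, COL6A3 and FBN1). That order was held by 1 of the 10 genes and by 190 of the 15815 genes tested (1.20%). TGFBR3 shared both ends of that order, TGFB3, LTBP1 and LTBP2 its lowest end and CTGF its highest. None of the 10 genes held the full order of the summed endothelial or the summed smooth muscle markers. TGFB2 shared both ends of the summed endothelial order, from SF/SCL replicate 3 as the highest to LF/LCL replicate 2 as the lowest. The mean centred level of these markers was instead highest in LF/LCL replicate 1 (0.50) and lowest in SF/SCL replicate 2 (-0.46). The smooth muscle markers separated the groups in the direction opposite to TGFB2 and the ciliated markers in the same direction. The part of these cell types in the TGFB2 difference was not tested.

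**Figure D3:**
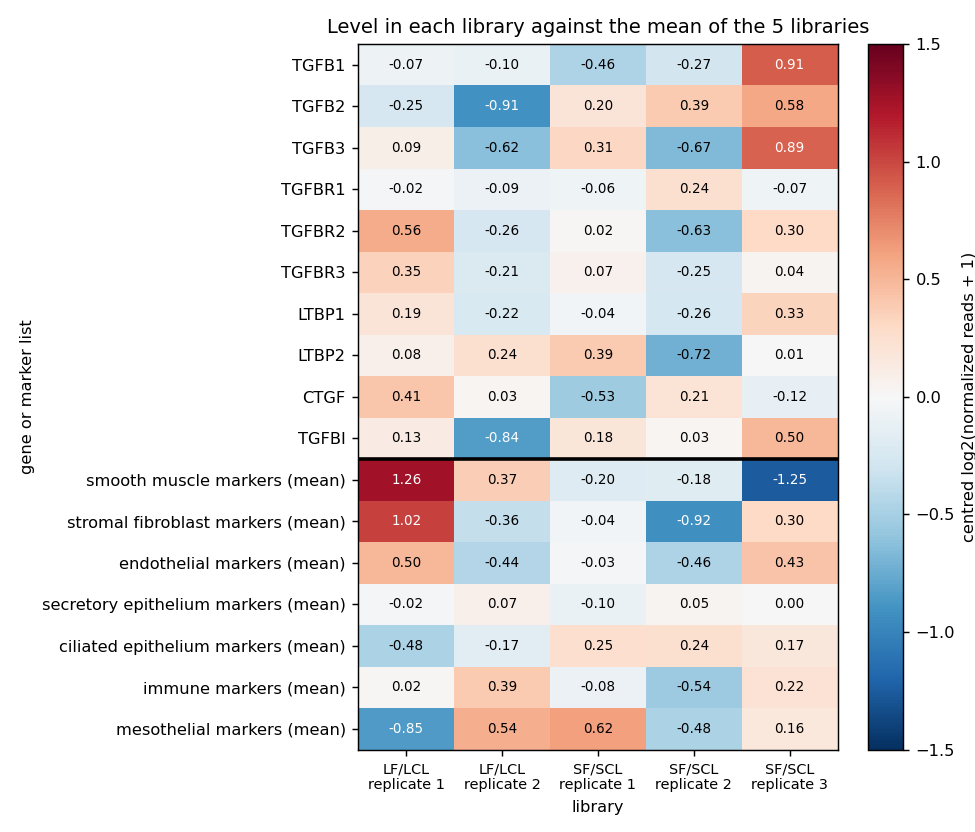
Level of each of the 10 genes (upper rows) and mean level of the cell type marker lists (lower rows) in each library (columns), as log2(normalized reads + 1) minus the mean of the 5 libraries. TGFBR2 runs from 0.56 in LF/LCL replicate 1 to -0.63 in SF/SCL replicate 2, as the stromal fibroblast markers do from 1.02 to -0.92, while TGFB2 is negative in both LF/LCL libraries and positive in all SF/SCL libraries.

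The genes most like TGFB2, TGFBR2 and CTGF over the 5 libraries were sought among 13138 other genes with a mean of at least 50 normalized reads, by the root mean square distance of the centred log2 levels. For TGFB2 they were DCAF16 (distance 0.08) and SYT7 (0.09). DCAF16 had 104 and 62.9 normalized reads in the LF/LCL libraries, against 132, 149 and 158 in SF/SCL. For TGFBR2 they were KIFC2 (0.02) and DPYSL2 (0.05), and for CTGF they were SPHK1 (0.04) and ZFYVE28 (0.05). With 5 libraries such likeness is a description only.

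The rest of the pathway was read from lists of genes around the ligands and receptors, which held 60 tested genes in all. With limma 0 of the 60 had an adjusted p under 0.05, and with the quasi-likelihood test also 0. An unadjusted p under 0.05 was found for 8 (13.3%), against 11.5% of all genes, and all 8 were higher in LF/LCL. Their median log2 fold change was 0.24, with 43 of 60 above 0. DESeq2 called 2 of the 60, TAGLN and TNC, both higher in LF/LCL. These values depended on single libraries. Without LF/LCL replicate 1 the median was 0.03, and without LF/LCL replicate 2 it was 0.41. These 2 fits leave 1 library in a group, so only the median is given. With an SF/SCL library left out, 5 to 6 list genes had an unadjusted limma p under 0.05, against 9.45% to 10.5% of all genes.

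Of 15 tested genes for latent storage and activation, 2 (13.3%) had an unadjusted limma p under 0.05, against 11.5% of all genes in either direction. Both were higher in LF/LCL, where 5.64% of all genes were, and the median log2 fold change was 0.19. The number was 0 without LF/LCL replicate 1 or SF/SCL replicate 3, 1 without SF/SCL replicate 2 and 5 without LF/LCL replicate 2. With all libraries the 2 genes were FURIN, the convertase that cleaves the ligand precursors, with 1806 normalized reads on average in LF/LCL and 1254 in SF/SCL (log2 fold change 0.51 ± 0.17, SE), and the microfibril gene FBN2 (0.96 ± 0.38). FBN1, the fibrillin to which latent binding proteins attach, had a log2 fold change of 0.78 ± 0.33. All 3 had a limma adjusted p above 0.05 (0.362, 0.420 and 0.454). FBN1 belongs also to the stromal markers.

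Of 17 co-receptors and intracellular genes, 2 had an unadjusted p under 0.05 (median 0.11), against 11.5% of all genes in either direction. The number was 0 without SF/SCL replicate 1 or replicate 3, and 2 without SF/SCL replicate 2. Over all genes the share in those fits was 9.45% to 10.5%. The median was -0.05 without LF/LCL replicate 1 and 0.19 without LF/LCL replicate 2. BAMBI, a decoy receptor, had 158 normalized reads on average in LF/LCL and 95.9 in SF/SCL (log2 fold change 0.71 ± 0.26, SE, limma adjusted p = 0.391). SMAD7, the inhibitory SMAD that is itself induced by TGF beta, had 72.4 and 40.5 (0.82 ± 0.33, limma adjusted p = 0.420). The third by p was TGFBRAP1, which binds the receptors, with -0.29 ± 0.14. The signal carriers had small differences, with log2 fold changes of -0.02 ± 0.13 for SMAD2, 0.07 ± 0.27 for SMAD3 and -0.11 ± 0.09 for SMAD4 (named for their role, after their values were seen).

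Of 23 textbook target genes of TGF beta, 5 (21.7%) had an unadjusted limma p under 0.05, against 11.5% of all genes in either direction. All 5 were higher in LF/LCL, where 5.64% of all genes were, and the median log2 fold change was 0.38. The 5 genes were TNC, TAGLN, ACTA2, SPARC and SMAD7. Of the other genes of this list, COL1A1, COL1A2 and COL3A1 are also stromal markers. TNC, a matrix glycoprotein of remodeling tissue, had 1095 normalized reads on average in LF/LCL and 302 in SF/SCL (log2 fold change 2.05 ± 0.63, SE, limma adjusted p = 0.347). TAGLN and ACTA2, which encode contractile cytoskeleton proteins, had log2 fold changes of 1.62 ± 0.50 and 1.67 ± 0.59 and are also smooth muscle markers, whose summed level did not overlap between the groups. The part of smooth muscle in these values was not tested. Without LF/LCL replicate 1 the median of the 23 was 0.40, and without LF/LCL replicate 2 it was 0.83. With an SF/SCL library left out, 3 to 5 of the 23 had an unadjusted limma p under 0.05, against 9.45% to 10.5% of all genes.

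Of 5 matrix proteoglycans that bind TGF beta, none had an unadjusted p under 0.05 (median 0.24, -0.57 without LF/LCL replicate 1 and 0.83 without LF/LCL replicate 2). The first 3 by p were BGN (0.65 ± 0.47), FMOD (0.32 ± 0.46) and ASPN (-0.21 ± 0.44). The other CCN family genes, relatives of CTGF, had 4 tested members with a median of -0.24, and none had an unadjusted p under 0.05. WISP2 (-0.61 ± 0.77), WISP1 (-0.27 ± 0.66) and NOV (-0.22 ± 0.33) had wide errors, and CYR61 was at -0.02, with a value above 0 in edgeR and DESeq2. The median of the 4 was -0.84 without LF/LCL replicate 1 and 0.22 without LF/LCL replicate 2, where 3 of the 4 were above 0.

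**Figure D4:**
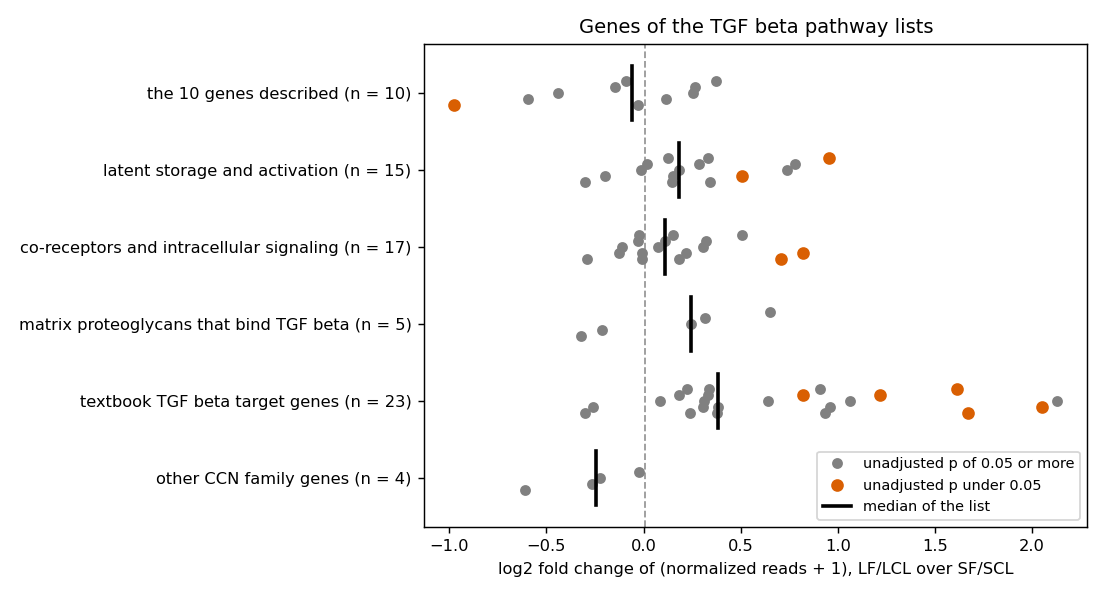
Log2 fold change of (normalized reads + 1), LF/LCL over SF/SCL (x axis), of the 10 genes and of the pathway lists (rows). Each point is a gene, orange where the unadjusted limma p is under 0.05, black bars are list medians and the dashed line is the median of all genes tested (0.01). TGFB2 is the one orange point below 0, and the 8 other genes in orange, SMAD7 among them in 2 lists, lie above it.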

How the data were processed

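Ampulla RNA from 5 cows was sequenced as polyA libraries. Per the labels and the study's methods, the authors trimmed reads with seqyClean, aligned them with TopHat2 2.0.8 and Bowtie2 2.1.0 to the masked UMD 3.1 cattle assembly, counted unique, unambiguous reads with HTSeq 0.5.4p2 and deposited a normalized signal, the count divided by a DESeq 1.12.1 size factor. Whether counting used strand was not given in the sources used here, so overlapping antisense genes cannot be told apart. Dividing by a step per library gave whole reads for 100% of nonzero values (tolerance 0.01 reads). The main test was limma 3.58.1 (trend, robust) on log2(value + 1), for 15815 genes with a mean over 5, Benjamini-Hochberg adjusted, two-sided, without covariates. A fold change on this scale understates the change of low genes. edgeR 4.0.16 and DESeq2 1.42.0 were run on the recovered reads, and fits were tested on simulated data. Other scalings, pseudocounts and filters and leaving out each library were tried. Ratios were tested by exact permutation over the 10 divisions of the libraries. The members and lists were chosen with earlier results of these data known, and TGFB2, TGFB3, TGFBR1, TGFBR2 and CTGF were among the candidates the study measured by PCR. Of each pathway list, the up to 3 genes with the smallest p were named, and likeness was sought for TGFB2, TGFBR2 and CTGF. The library order was examined after seeing the data. Counting error covers reads only. No gene sequences or lengths were used here.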

Additional observations from a re-analysis of the deposited data

How the results depend on the processing

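No paired analysis was possible because the labels give animal numbers and no number shared between the groups. With a group reduced to 1 library, that library was assumed to vary like the other group. DESeq2 called 457 genes, 1 of the 10 (TGFB2, log2 fold change -0.95) and 2 pathway genes, where limma and the quasi-likelihood test called 0. At an unadjusted p under 0.05 DESeq2 gave 13 pathway genes and 2013 of all genes, where limma gave 8 and 1819. The cause was not tested. With 1 library left out, members with an unadjusted p under 0.05 ran from 1 to 2, members without overlap from 2 to 4, as fewer libraries overlap less often (41.1% to 57.1% of all genes), and pathway genes from 1 to 15. Over the same fits the log2 fold change ran from -0.41 to 0.28 for TGFB1 (above 0 without SF/SCL replicate 3), from -0.14 to 0.0089 for TGFBR1 (above 0 without SF/SCL replicate 2), from -0.15 to 0.66 for TGFBR2 (below 0 without LF/LCL replicate 1, and -0.0088 without SF/SCL replicate 2), from -0.17 to 0.40 for TGFBR3 (below 0 without LF/LCL replicate 1), from -0.24 to 0.18 for LTBP1 (above 0 without LF/LCL replicate 2 and, at 0.13, without SF/SCL replicate 3) and from -0.039 to 0.51 for LTBP2 (below 0 without SF/SCL replicate 2). TGFB2, TGFB3, CTGF and TGFBI kept their sign in all 14 alternatives, which for TGFB2 was fixed in advance in the fits that left out a library. The median over all genes moved by less than 0.1 under each scaling.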
